A study of Mus musculus with 12 samples.

Results

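The genes described here are 34 genes known for expression in, or for signals to, the lining cells of blood and lymph vessels. They were chosen by name from a list of endothelial genes, and all 34 of 34 were rows of the count table, which holds 46403 genes. All 34 also passed the filter on low counts, as did 23742 genes in all, with 162 to 18346 counts per gene and library. Polyadenylated RNA of the whole right kidney of mice, with no treatment given, was sequenced in 12 libraries of 3 groups. The wildtype group (WT, n = 5) carried, by its label, R26StopFLMYC and Grhl2 flox/flox: a MYC transgene at Rosa26 that stays silent without Cre recombinase, and floxed Grhl2 on both chromosomes. The Myc group (n = 3) is labelled as overexpressing Myc; the labels give neither its cross nor its state at Grhl2, although its library identifiers hold the letters HET. The Grhl2KO_Myc group (n = 4) is labelled as Grhl2 knockout with Myc overexpression and came from HoxB7-Cre; Grhl2flox/+ mice crossed to R26StopFLMYC; Grhl2flox/flox mice. HoxB7-Cre acts in the collecting duct and the ureteric bud it grows from, and is not known as a driver of recombination in endothelium. No source used here gives the age of the mice, and kidneys with only the knockout were not analysed here.

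Endothelial cells line every vessel of the kidney, from the arteries through the fenestrated capillaries of the glomerulus to the peritubular capillaries and the vasa recta. They are held together by junction proteins such as VE-cadherin and PECAM-1. Epithelial cells and podocytes secrete VEGF-A, which binds receptors on the endothelium. Angiopoietin-1, made mainly by cells next to the vessel, acts on the receptor TIE2. Transcription factors of the ETS, SOXF and GATA families keep the endothelial program active, and the lymphatic vessels use a related set with PROX1.

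Levels are given in CPM, which are counts relative to the TMM-scaled library total, and group values are means ± SD across libraries. Differences are log2 fold changes with their standard error (SE) from edgeR's quasi-likelihood test, with Benjamini-Hochberg adjusted p over all 23742 genes, and a gene was called at an adjusted p under 0.05. Total counts lay between 52973520 and 108164810 per library. Grhl2 lay between 18.5 and 24.3 CPM in Grhl2KO_Myc, between 28.2 and 33.1 CPM in Myc and between 23.9 and 29.3 CPM in WT libraries. Its fall from Myc to Grhl2KO_Myc was 0.51 on the log2 scale (edgeR adjusted p = 0.044). This call was lost without any 1 of the Myc libraries or of Grhl2KO_Myc replicates 1, 2 and 4 (adjusted p = 0.077 to 0.21). From WT to Grhl2KO_Myc the log2 fold change of Grhl2 was -0.29, which was not called, and the libraries overlapped. WT replicate 4 and Grhl2KO_Myc replicates 3 and 4 stood apart by low proximal tubule markers, with scores of -1.28, -1.09 and -0.98 on the log2 scale against -0.103 to 0.770 in the others. The Y-linked gene Ddx3y was at 62.8 to 81.2 CPM in WT replicate 5, Myc replicate 3 and Grhl2KO_Myc replicates 1 and 4, and at 1.33 CPM or less in the rest, so the libraries come from mice of both sexes in each group. Myc, whose label states overexpression, was at 24.0, 19.1 and 27.6 CPM in Myc libraries, 19.8 to 34.4 CPM in WT and 27.0 to 32.2 CPM in Grhl2KO_Myc. Its log2 fold change from WT was -0.18 in Myc (adjusted p = 1) and 0.17 in Grhl2KO_Myc (0.55), so whole-kidney counts of the mouse gene did not show the labelled overexpression; whether they include transgene reads was not tested. Yam1, Rn18s-rs5 and the protein-coding gene Lars2 were listed together for ribosomal RNA. In Myc replicate 1 this list took 5.55% of counts, against 0.16% to 0.581% in the others. Each group held mice of both sexes, but no label states that each library is a different mouse. The p-values therefore speak only for the spread between these samples, part of which may be technical.

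The tissue held clear endothelial RNA in every library. Pecam1, which encodes the junction protein PECAM-1, was at 98.7 CPM or more, and Cdh5, which encodes VE-cadherin, at 116 CPM or more. Per kilobase of exon the highest of the 34 genes in WT was Plvap, a protein of the diaphragms of fenestrated capillaries, at 88.4 ± 6.01 CPM per kb. It was followed by the tight junction gene Cldn5 at 49.3 ± 7.54 and the plasminogen activator gene Plat at 45.2 ± 4.03 CPM per kb, which did not differ beyond their spread. Cdh5 at 35.6 ± 1.41 and Ramp2 at 35.4 ± 6.03 CPM per kb were next and also within their spread. At the low end stood Vwf at 0.985 ± 0.055 and Prox1 at 0.819 ± 0.214 CPM per kb. These levels rest on the deposited exon widths, which count all exons of a gene whether or not the kidney uses them.

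In Grhl2KO_Myc kidneys 5 of the 34 genes differed from WT. Tek, Kdr, Flt1 and Plat were 1.2-fold to 1.28-fold lower, and the transcription factor gene Gata2 was 1.57-fold higher. Across all genes 6.67% were called in this comparison, 2.61% lower and 4.06% higher. At an unadjusted p under 0.05, 11 of the 34 were lower and 1 was higher, against 9.91% and 12% of all genes. Fold changes were below 0 for 32 of the 34 genes, against 51.5% of all genes, and their median was -0.11 on the log2 scale against -0.01 over all genes. The 34 genes thus sat slightly low together, and 29 of them did not pass the test. In whole-kidney RNA, fewer endothelial cells and less of these RNAs per cell cannot be told apart.

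**Figure D1:**
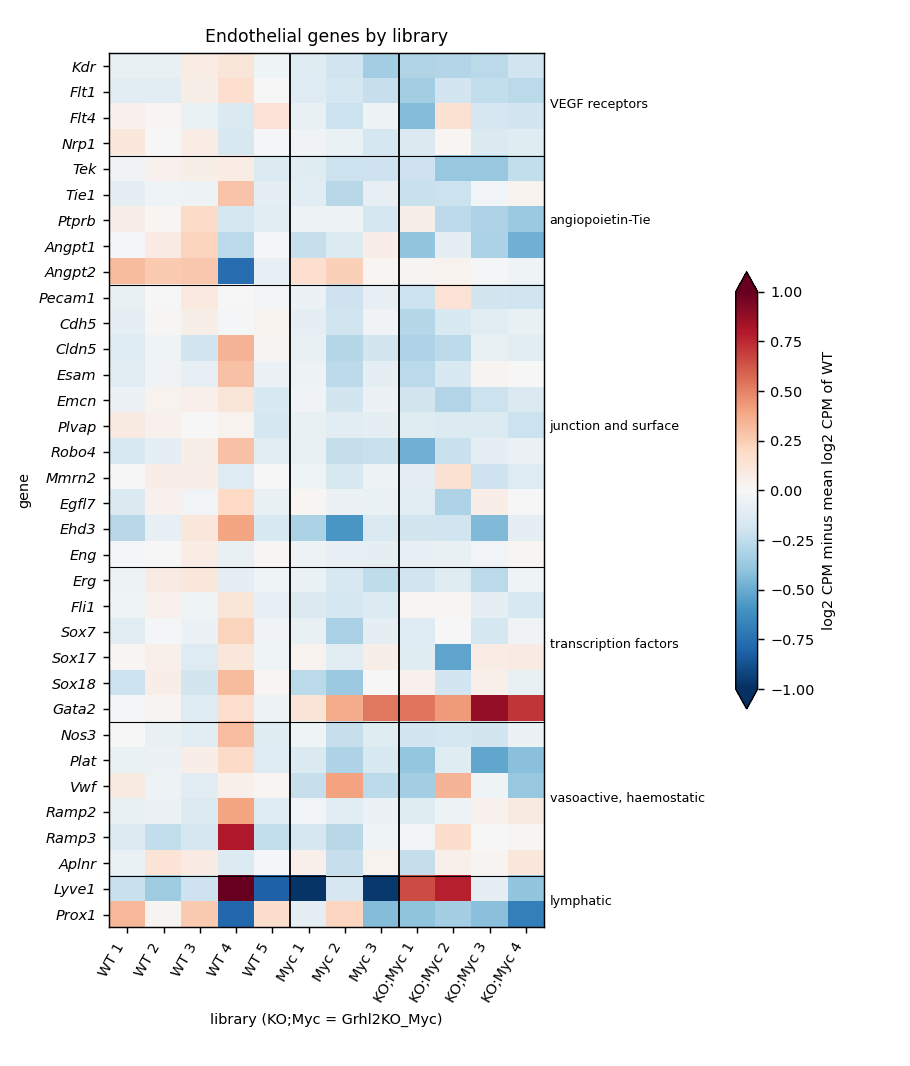
Level of each of the 34 endothelial genes (rows, by role) in each of the 12 libraries (columns, by group), as log2 CPM minus the gene's mean in WT, with colours that end at -1 and 1. Most genes are slightly below the WT mean in Myc and Grhl2KO_Myc libraries, Gata2 is above it, and Lyve1 in WT replicate 4 goes past the end of the scale.

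The genes of both VEGF-A receptors with a kinase domain were lower in Grhl2KO_Myc than in WT. Kdr encodes VEGFR2, the main signalling receptor for VEGF-A, and lies on chromosome 5 (75932827 to 75978458, minus strand, mm10, ENSMUSG00000062960.10). Flt1 encodes VEGFR1, which binds VEGF-A tightly and holds it back, and lies on the same chromosome (147561604 to 147726011, minus strand, ENSMUSG00000029648.13). Tek encodes TIE2, the angiopoietin receptor, on chromosome 4 (94739289 to 94874976, plus strand, ENSMUSG00000006386.15). Counts of these 3 genes cover exons, and in GENCODE M21 no exon of theirs overlaps another gene. They are the 3 members whose Grhl2KO_Myc libraries all lay below all WT libraries, a pattern found in 3.81% of all genes, so the 250 bases before their RefSeq starts (GRCm38.p6, strand of the gene) are shown, with GGAA, the core bound by ETS factors, or its complement TTCC in capitals.
Tek, chr4:94739039-94739288: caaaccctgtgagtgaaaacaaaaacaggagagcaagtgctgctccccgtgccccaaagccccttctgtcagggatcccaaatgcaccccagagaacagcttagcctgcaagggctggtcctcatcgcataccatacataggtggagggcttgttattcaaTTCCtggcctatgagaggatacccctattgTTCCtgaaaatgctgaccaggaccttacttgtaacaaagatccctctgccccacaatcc
Kdr, chr5:75978456-75978705: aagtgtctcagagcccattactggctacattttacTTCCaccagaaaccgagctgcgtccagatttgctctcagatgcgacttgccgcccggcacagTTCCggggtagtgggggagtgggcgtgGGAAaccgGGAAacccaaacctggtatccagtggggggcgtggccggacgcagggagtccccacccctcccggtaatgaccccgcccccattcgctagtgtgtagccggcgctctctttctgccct
Flt1, chr5:147726012-147726261: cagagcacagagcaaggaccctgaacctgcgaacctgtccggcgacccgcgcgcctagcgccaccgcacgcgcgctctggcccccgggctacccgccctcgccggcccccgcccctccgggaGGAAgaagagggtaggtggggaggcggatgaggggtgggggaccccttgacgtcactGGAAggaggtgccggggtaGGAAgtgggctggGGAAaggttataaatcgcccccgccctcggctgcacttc
The window of Tek held 2 such cores and those of Kdr and Flt1 held 4 each, and 93.4% of the 32851 windows in the table held at least 1 on either strand. The longer form AGGAAG, which contains the core, was searched on both strands too: it occurred 2 times in the window of Flt1, in neither of the others, and in 29.5% of all windows. A match is a description of the letters only. A comparison over all 34 genes would be void, because the table held windows for 16 of them.

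Kdr was at 90.0, 90.1, 99.7, 103 and 92.3 CPM in WT replicates 1 to 5, at 87.1, 82.9 and 74.7 CPM in Myc replicates 1 to 3, and at 77.3, 77.6, 78.8 and 82.6 CPM in Grhl2KO_Myc replicates 1 to 4. Every Myc and Grhl2KO_Myc library was thus below every WT library. From 95.1 ± 6.14 CPM in WT (n = 5) to 79.1 ± 2.44 CPM in Grhl2KO_Myc (n = 4), Kdr fell by 0.27 on the log2 scale (SE 0.058, edgeR adjusted p = 0.018). Flt1 was at 40.3, 40.3, 45.5, 49.0 and 43.7 CPM in WT, at 39.8, 38.7 and 37.3 CPM in Myc and at 34.2, 38.1, 36.7 and 36.2 CPM in Grhl2KO_Myc. The order of the groups is that of Kdr, and the highest Myc library lay just below the lowest WT library. Its log2 fold change from WT to Grhl2KO_Myc was -0.27 (SE 0.062, edgeR adjusted p = 0.025).

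The other members of this group did not pass the test. Flt4 encodes VEGFR3, the receptor of VEGF-C on lymphatic and some blood capillaries, and its log2 fold change was -0.15 (adjusted p = 0.43). Nrp1, a co-receptor for VEGF-A and semaphorins, had -0.10 (adjusted p = 0.39). The Kdr call was lost without Grhl2KO_Myc replicate 3 (adjusted p = 0.054). That of Flt1 was lost without WT replicate 3 (0.059) or Grhl2KO_Myc replicate 1 (0.063), 3 (0.064) or 4 (0.070).

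Of the angiopoietin and TIE genes, Tek was the one called. It was at 75.8, 79.7, 80.7, 81.5 and 70.3 CPM in WT, at 71.2, 66.9 and 67.0 CPM in Myc and at 67.0, 59.6, 59.7 and 65.4 CPM in Grhl2KO_Myc. The lowest WT library was above every Grhl2KO_Myc library and below 1 Myc library. From 77.6 ± 4.62 CPM in WT to 62.9 ± 3.84 CPM in Grhl2KO_Myc, Tek fell by 0.30 on the log2 scale (SE 0.056, edgeR adjusted p = 0.0081). It passed without any 1 of the 9 libraries (adjusted p = 0.0045 to 0.034).

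Angpt1 encodes the activating ligand of TIE2, made in the kidney by mural and stromal cells and podocytes. It was at 32.1, 34.4, 37.9, 26.9 and 32.0 CPM in WT, 27.6, 29.5 and 33.9 CPM in Myc and 24.7, 30.3, 26.04 and 23.3 CPM in Grhl2KO_Myc. Its groups overlapped, the log2 fold change was -0.32 (SE 0.10, edgeR adjusted p = 0.087), and it was called without WT replicate 4 (adjusted p = 0.016) or without Grhl2KO_Myc replicate 2 (0.049). Angpt2 encodes the context-dependent antagonist of the same receptor. It was at 23.3, 22.5, 22.6, 11.1 and 17.7 CPM in WT, at 21.1, 22.1 and 19.0 CPM in Myc and between 18.2 and 19.2 CPM in Grhl2KO_Myc. WT alone spanned the values of both other groups, and its log2 fold change was -0.05 (adjusted p = 0.90).

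Tie1, the partner receptor of TIE2, was at 109, 112, 112, 141 and 109 CPM in WT, 107, 95.7 and 109 CPM in Myc and 99.3, 99.7, 113 and 119 CPM in Grhl2KO_Myc. Its log2 fold change of -0.11 had a 95% interval of -0.30 to 0.08 (adjusted p = 0.49). Ptprb, a phosphatase that acts on TIE2 and VE-cadherin, had -0.22 (adjusted p = 0.19) and was called without Grhl2KO_Myc replicate 1 (adjusted p = 0.041).

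**Figure D2:**
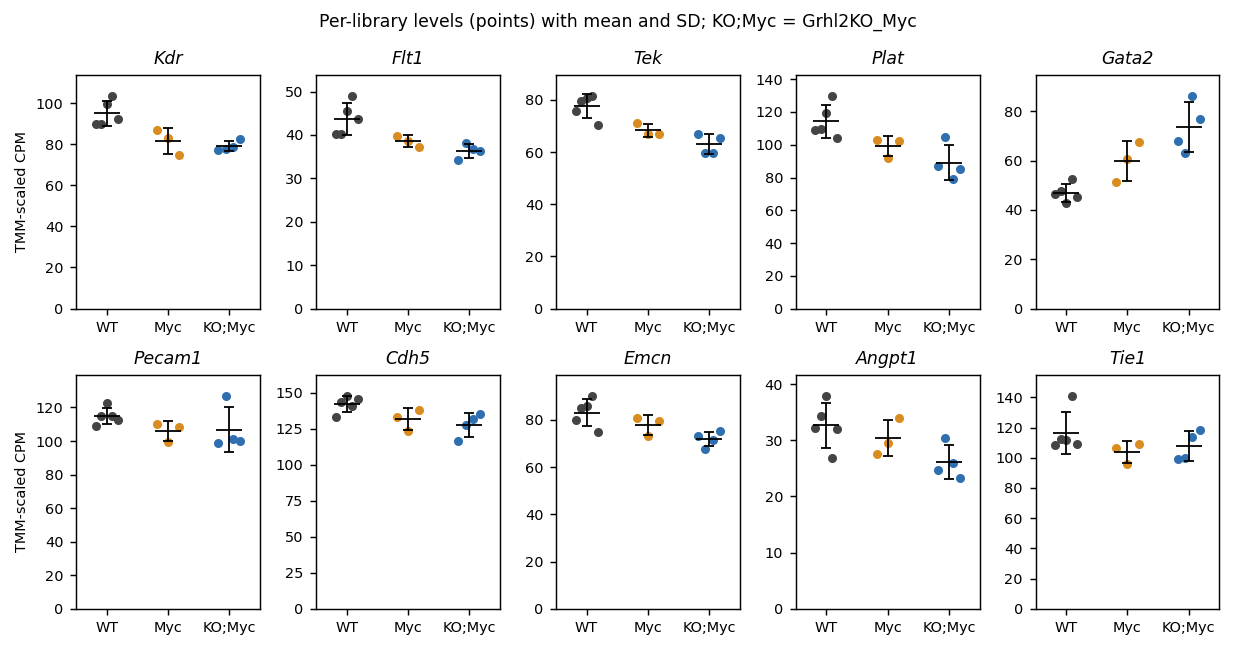
CPM of 10 endothelial genes in each library (points) with the mean and SD of each group (bars), on linear axes that start at 0. Kdr, Flt1 and Tek in Grhl2KO_Myc lie below every WT library, Gata2 lies above, and Pecam1, Cdh5 and Tie1 overlap between the groups.

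The junction and surface genes, which define the cell type, contributed no call among 11 tested. Over all genes 2.61% were called lower and 4.06% higher, and 11 genes are too few to set 0 calls apart from these shares. All 11 fold changes were below 0 with a median of -0.15 on the log2 scale. At an unadjusted edgeR p under 0.05, 3 of the 11 were lower, against 9.91% of all genes. Pecam1 was at 109, 115, 123, 115 and 113 CPM in WT, 110, 99.4 and 108.2 CPM in Myc and 98.7, 127, 101 and 100 CPM in Grhl2KO_Myc. Grhl2KO_Myc replicate 2 was the highest of all 12 libraries and the other 3 of its group were below every WT library. The log2 fold change was -0.11 with a 95% interval of -0.27 to 0.05 (adjusted p = 0.43), and without that library it was -0.20 and called (adjusted p = 0.048).

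Cdh5 was at 133, 143, 147, 141 and 145 CPM in WT, 133, 124 and 138 CPM in Myc and 116, 127, 132 and 135 CPM in Grhl2KO_Myc. Its groups overlapped through 1 WT library, with a log2 fold change of -0.15 (adjusted p = 0.12). Emcn, a sialomucin of capillaries and veins, was at 79.8, 85.0, 85.9, 90.0 and 74.8 CPM in WT, 81.0, 73.1 and 79.4 CPM in Myc and 73.1, 67.8, 71.3 and 75.2 CPM in Grhl2KO_Myc. It came nearest to the threshold at -0.21 on the log2 scale (SE 0.058, edgeR adjusted p = 0.051). It was called without WT replicate 4 (adjusted p = 0.044) or 5 (0.021).

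The markers of capillary type were not called either. Ehd3, a protein of the glomerular endothelium, was at 38.5, 44.1, 50.7, 61.7 and 42.2 CPM in WT, 37.7, 31.3 and 42.4 CPM in Myc and 41.1, 40.8, 34.4 and 43.9 CPM in Grhl2KO_Myc. The groups overlapped and the log2 fold change of -0.24 did not pass (adjusted p = 0.31). Plvap was at 190, 183, 178, 182 and 158 CPM in WT, 169, 165 and 166 CPM in Myc and 164, 162, 162 and 154 CPM in Grhl2KO_Myc. Only WT replicate 5 was as low as the Grhl2KO_Myc libraries; the log2 fold change was -0.15 (adjusted p = 0.11), and -0.20 and called without that library (adjusted p = 0.025).

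The junction genes Cldn5 and Esam had log2 fold changes of -0.20 and -0.10 (adjusted p = 0.27 and 0.55). The surface receptor gene Robo4 had -0.21 (0.26), the matrix gene Mmrn2 -0.06 (0.64), the secreted Egfl7 -0.08 (0.59) and the TGF-beta co-receptor gene Eng -0.04 (0.60). Exons of Egfl7 overlap those of Agpat2 and of the host region of miR-126, and exons of Eng overlap Fpgs. The same holds for Ramp2 (Vps25), Nos3 (Atg9b and Gm15587), Ramp3 (Gm11978), Sox17 (Gm37587), Angpt1 (Gm17473), Prox1 (Prox1os) and Nrp1 (Mir1903). The kit did not mark strand, so the counts of these 9 members are less certain.

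Among 6 transcription factor genes 1 was called, and it rose. Gata2 encodes a GATA factor of endothelial and blood progenitor cells that is also present in collecting duct cells, and lies on chromosome 6 (88193891 to 88207032, plus strand, ENSMUSG00000015053.14). It was at 46.5, 47.7, 42.8, 52.6 and 45.1 CPM in WT, 51.2, 60.6 and 67.4 CPM in Myc and 67.9, 63.0, 86.2 and 76.8 CPM in Grhl2KO_Myc. Every Grhl2KO_Myc library was above every WT library, as in 5.67% of all genes, and the Myc libraries lay between and touched both. The log2 fold change from WT was 0.65 (SE 0.10, edgeR adjusted p = 0.0028) and stayed called without any 1 of the 9 libraries (0.56 to 0.71, adjusted p = 0.0012 to 0.013).

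None of the other 5 factors was called. The ETS factor genes Erg and Fli1 had log2 fold changes of -0.16 and -0.06 (adjusted p = 0.18 and 0.61). The SOXF genes Sox7, Sox17 and Sox18 had -0.09, -0.10 and -0.05 (0.58, 0.62 and 0.82). Of 12 collecting duct markers, Foxi1, which marks intercalated cells, was called higher and Avpr2, the vasopressin receptor gene, was called lower (log2 fold change -0.93, adjusted p = 2.9e-04). At an unadjusted edgeR p under 0.05, 4 of the 12 were higher and 2 lower, against 12% and 9.91% of all genes. Hsd11b2, which was not called, was at 25.7 to 75.4 CPM in WT and 91.4 to 103 CPM in Grhl2KO_Myc. The 12 had a median of -0.02. Their summed level was 624 to 932 CPM in WT, 782 to 920 CPM in Myc and 732 to 889 CPM in Grhl2KO_Myc. The part of collecting duct cells in the Gata2 level was not tested.

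The vasoactive and haemostatic genes held 1 call of 6. Plat encodes tissue plasminogen activator, which starts fibrin breakdown and is made by endothelial and some tubular cells, and lies on chromosome 8 (22757727 to 22782844, plus strand, ENSMUSG00000031538.6). It was at 109, 109, 119, 130 and 104 CPM in WT, 103, 92.0 and 102 CPM in Myc and 87.1, 105, 79.3 and 85.4 CPM in Grhl2KO_Myc. Grhl2KO_Myc replicate 2 was above the lowest WT library and the other 3 lay below all of WT. Plat fell by 0.36 on the log2 scale (SE 0.085, edgeR adjusted p = 0.027). The call was lost without WT replicate 3 (adjusted p = 0.064) or Grhl2KO_Myc replicate 1 (0.065), 3 (0.083) or 4 (0.083).

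Nos3, the endothelial nitric oxide synthase gene, was at 32.8, 31.0, 30.2, 40.5 and 30.1 CPM in WT, 31.8, 27.9 and 30.2 CPM in Myc and 28.7, 28.9, 28.8 and 31.4 CPM in Grhl2KO_Myc. The groups overlapped, with a log2 fold change of -0.16 (adjusted p = 0.30). Vwf, which encodes the platelet-binding von Willebrand factor, was at 16.8, 15.3, 14.6, 16.4 and 15.98 CPM in WT, 13.5, 20.9 and 13.2 CPM in Myc and 12.5, 20.0, 15.3 and 12.1 CPM in Grhl2KO_Myc. Its values were close together in WT and spread in the other groups, with a log2 fold change of -0.08 (adjusted p = 0.82). The apelin receptor gene Aplnr had -0.01, and Ramp2 and Ramp3, which encode partners of the adrenomedullin receptor, had -0.02 each (adjusted p = 0.96, 0.92 and 0.97). Ramp3 was at 24.6 CPM in WT replicate 4 and at 11.9 to 12.9 CPM in the other WT libraries, and without that replicate its log2 fold change was 0.25 and called (adjusted p = 0.035).

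Neither lymphatic gene was called. Lyve1, a hyaluronan receptor of lymphatic endothelium and some macrophages, was at 4.62, 4.20, 4.67, 16.3 and 3.07 CPM in WT, 2.73, 4.80 and 2.77 CPM in Myc and 8.47, 9.23, 5.06 and 4.10 CPM in Grhl2KO_Myc. WT replicate 4 was above all other libraries, and the log2 fold change of 0.02 had a 95% interval of -0.96 to 1.01 (adjusted p = 0.98). Prox1, the master regulator of lymphatic identity that tubular cells also express, was at 8.34, 6.75, 7.93, 3.85 and 7.48 CPM in WT, 6.20, 7.69 and 4.92 CPM in Myc and 5.02, 5.25, 4.97 and 4.13 CPM in Grhl2KO_Myc. WT replicate 4 was here the lowest of all; the log2 fold change was -0.50 (SE 0.20, edgeR adjusted p = 0.16), and -0.66 and called without that library (adjusted p = 0.0071).

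Leaving out the 3 libraries low in proximal tubule markers changed which members passed. Only replicates 1 and 2 of Grhl2KO_Myc remained, so tubule content and the smaller group cannot be told apart here. Tek (log2 fold change -0.28, adjusted p = 0.033), Kdr (-0.27, 0.035) and Gata2 (0.52, 0.010) were still called. Flt1 (-0.24, 0.062) and Plat (-0.21, 0.15) were not, while Cdh5 (-0.23, 0.047) and Lyve1 (1.09, 0.020) were. For Lyve1 the omitted WT replicate 4 was the highest library, at 16.3 CPM. With a term for Y-linked expression Flt1 and Plat did not pass (adjusted p = 0.053 and 0.060), nor did they in a fit of WT and Grhl2KO_Myc alone (0.054 and 0.052). Over the 9 leave-one-out fits of this comparison the count of members called was between 2 and 9. It was 2 without Grhl2KO_Myc replicate 3, 3 without WT replicate 3 or Grhl2KO_Myc replicate 4, and 9 without WT replicate 4. The share of all genes called in each of these fits is not given beside these counts. Proximal tubule markers themselves had all 30 fold changes below 0 in Grhl2KO_Myc, with a median of -0.55. Within that group the score was low in replicates 3 and 4, and 0.305 and 0.0694 in replicates 1 and 2. Of the 30 markers 2 were called lower, against 2.61% of all genes. At an unadjusted edgeR p under 0.05, 9.91% of all genes and 4 of these markers were lower. Their summed level was 2330 to 8390 CPM in WT, 5190 to 7030 CPM in Myc and 2440 to 6340 CPM in Grhl2KO_Myc, and their part in the endothelial differences was tested only through fits that omit these libraries or include the tubule score as a term.

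**Figure D3:**
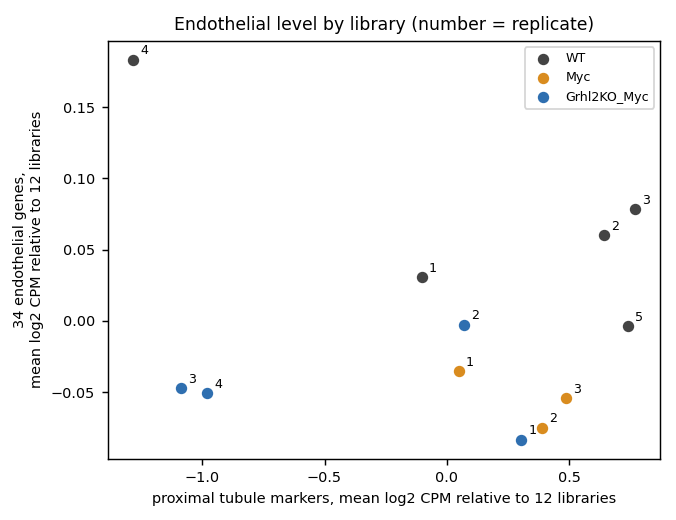
Mean log2 CPM of the 34 endothelial genes, each centred on its average across the 12 libraries (vertical axis), against the same score of the proximal tubule markers (horizontal axis), 1 point per library. WT replicate 4 is highest at 0.183 and lowest in proximal tubule score, 4 of 5 WT libraries are above 0, and all Myc and Grhl2KO_Myc libraries are below 0.

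The mean over the 34 genes put the groups in an order without a test, since its members were chosen with results known. WT libraries scored 0.0307, 0.0603, 0.0784, 0.183 and -0.0038, Myc libraries -0.0355, -0.0750 and -0.0542, and Grhl2KO_Myc libraries -0.0834, -0.0028, -0.0471 and -0.0510, in mean log2 CPM after each gene was centred across libraries. The Myc libraries all lay below every WT library, and Grhl2KO_Myc replicate 2 lay just above the lowest of them.

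A set of 5 genes of broad endothelial expression (Pecam1, Cdh5, Tie1, Erg and Esam) gave a measure of how much endothelial RNA each library held. Their summed level was 447.5 ± 22.0 CPM in WT, 408.8 ± 23.1 CPM in Myc and 410.3 ± 22.7 CPM in Grhl2KO_Myc, and the ranges met. Scaling each library by these counts moved the median of all genes to 0.12 on the log2 scale for Grhl2KO_Myc against WT. These 5 genes are members, and scaling by them centres the set by construction, so the signs of the 34 are not a result on this scale. On this scale Gata2 alone was called (log2 fold change 0.77, edgeR adjusted p = 6e-04). Tek (-0.17, 0.14), Kdr (-0.14, 0.17), Flt1 (-0.14, 0.14) and Plat (-0.23, 0.065) were not. The share of all genes called in that fit is not given here. The calls kept and lost therefore do not set these members apart from other genes. Relative to the endothelial sum, Tek, Kdr, Flt1 and Plat were thus lower by amounts that did not pass, and Gata2 rose from 10.5 ± 0.68% of the sum in WT to 14.7 ± 2.16% in Myc and 17.9 ± 2.33% in Grhl2KO_Myc.

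**Figure D4:**
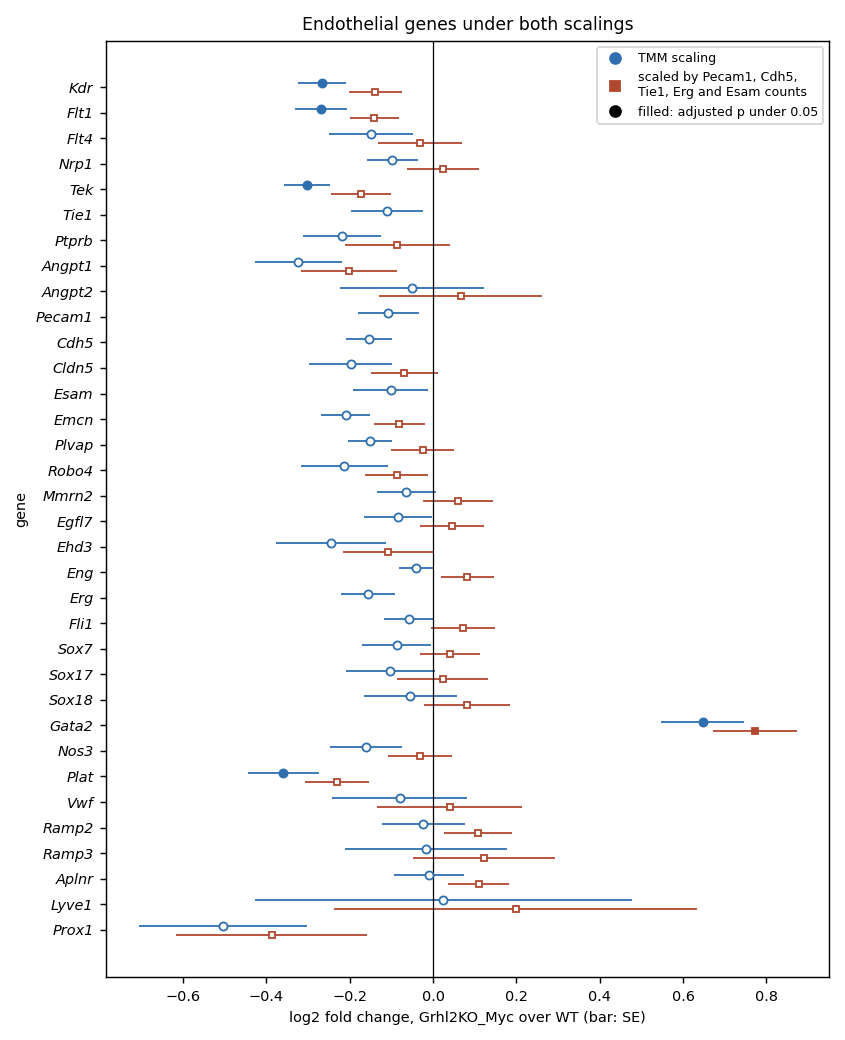
Log2 fold change of each of the 34 genes from WT to Grhl2KO_Myc, with SE, under TMM scaling and under scaling by the counts of 5 broad endothelial genes; filled points have an adjusted p under 0.05. With TMM 32 of 34 lie below 0 and 5 are called. With endothelial scaling, which centres the set by construction and leaves 29 genes to test, Gata2 is called.

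In the Myc group, which lacks the knockout label, most members were also on the low side of WT, but none was called. Of all genes, edgeR called 1 (0.00421%) in this comparison, and DESeq2 and limma-voom called 0 of the 34 as well. At an unadjusted p under 0.05, 7 members were lower, against 1.8% of all genes, and Gata2 was higher, against 2.83% (4.62% in either direction). Fold changes were below 0 for 31 of 34, against 50% of all genes, with a median of -0.12. Myc and Grhl2KO_Myc were both set against the same WT libraries, so these counts are not independent.

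Kdr was at 81.6 ± 6.32 CPM in Myc, a log2 fold change from WT of -0.22 with a 95% interval of -0.36 to -0.08 (adjusted p = 0.83). For Tek it was -0.18 (0.93), for Flt1 -0.18 (1), for Plat -0.21 (1) and for Gata2 0.35 (0.88). The Myc libraries did not overlap with WT for Kdr, Flt1, Plat and Fli1, which were lower, a pattern of 1.34% of all genes, and did not lie wholly above WT for any member, against 2.22%. The Myc group held 3 libraries, and across the 34 genes the 95% intervals ran from -2.06 to 0.58. Some were far narrower, such as those of Cdh5 (-0.24 to 0.02) and Eng (-0.17 to 0.02). Lyve1, whose WT libraries spread from 3.07 to 16.3 CPM, had the lowest fold change, at -0.94.

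The comparison of Grhl2KO_Myc with Myc, which differ in the labelled knockout, gave 0 calls among the 34 genes by edgeR, DESeq2 and limma-voom, where edgeR called 0.842% of all genes, 0.484% lower and 0.358% higher. At an unadjusted p under 0.05 it gave 1, Gata2, which was higher, against 13.3% of all genes (6.67% lower and 6.64% higher). Fold changes were below 0 for 19 of 34, against 49.5% of all genes, and the median was -0.01. For Kdr the log2 fold change was -0.05 with a 95% interval of -0.19 to 0.10, for Flt1 -0.09 (-0.24 to 0.07), for Tek -0.12 (-0.26 to 0.02) and for Plat -0.15 (-0.36 to 0.06). The intervals of Kdr, Flt1 and Tek end short of the differences measured from WT, and that of Plat reaches it. Those differences have intervals too, -0.39 to -0.14 for Kdr, -0.40 to -0.13 for Flt1 and -0.42 to -0.18 for Tek. These overlap the intervals against Myc. Both comparisons share the Grhl2KO_Myc libraries, and their fold changes were not tested against each other. The missing calls do not show that the 2 groups are alike.

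Gata2 was at 59.7 ± 8.10 CPM in Myc and 73.5 ± 10.2 CPM in Grhl2KO_Myc, a log2 fold change of 0.30 with a 95% interval of 0.05 to 0.55 (edgeR adjusted p = 0.28). The libraries did not overlap for 1 gene that was lower, Plvap, and 1 that was higher, Ramp3, against 7.89% and 8.95% of all genes. Lyve1 had the widest interval, -0.19 to 2.12 around 0.97 (edgeR adjusted p = 0.47). It was called without the 3 libraries low in proximal tubule markers (1.37, adjusted p = 0.033). Of Grhl2KO_Myc that fit held only replicates 1 and 2.

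A wider set of 115 vascular genes outside the 34, listed by pathway and vessel zone, held 13 that fell and 2 that rose from WT to Grhl2KO_Myc, where 2.61% of all genes were called lower and 4.06% higher. Their median was -0.13 and 87 fold changes were below 0, against 51.5% of all genes. Notch and BMP genes gave 5 falls of 18, against 2.61% of all genes, with a median of -0.15. Jag1, a Notch ligand that tubular cells also make, fell from 138 ± 10.1 to 105 ± 6.30 CPM (log2 fold change -0.40, edgeR adjusted p = 0.0052). Its libraries were 154, 139, 127, 133 and 138 CPM in WT, 147, 135 and 123 CPM in Myc and 101, 97.6, 111 and 109 CPM in Grhl2KO_Myc, so Myc overlapped with WT and Grhl2KO_Myc lay below both. Against Myc its log2 fold change was -0.37 with a 95% interval of -0.53 to -0.20 (edgeR adjusted p = 0.051). Grhl2KO_Myc lay wholly below WT for 3.81% of all genes and wholly below Myc for 7.89%.

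The Notch target gene Hey1 fell from 36.8 to 26.2 CPM (-0.49, adjusted p = 0.011) and its relative Hey2 from 8.199 to 6.42 CPM (-0.35, 0.021). The endothelial receptor gene Notch4 had -0.20 (0.049), and Notch1, the fifth called gene of this list and named after its values were seen, had -0.27 with an adjusted p that rounds to 0.05. Jag1 and Hey1 were called in all 9 fits that leave out a library, but Hey1 was lost without the 3 libraries low in proximal tubule markers (0.052) and Jag1 under endothelial scaling (0.059). Hey2 was lost without WT replicate 2 or Grhl2KO_Myc replicate 3 or 4 (adjusted p = 0.051 to 0.070). Notch1 and Notch4 were each called in 2 of the 9 fits (adjusted p = 0.03 to 0.12 and 0.04 to 0.11).

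Of 16 genes of VEGF and apelin signalling, 2 fell, where 2.61% of all genes were called lower. Sema3a, a semaphorin that binds neuropilin-1, was at 48.3, 44.6, 49.0, 37.8 and 39.4 CPM in WT, 47.4, 44.2 and 39.4 CPM in Myc and 29.6, 32.6, 33.96 and 32.8 CPM in Grhl2KO_Myc. All Grhl2KO_Myc libraries were below all others. For all genes the shares wholly below were 3.81% against WT and 7.89% against Myc. The log2 fold change of Sema3a was -0.44 from WT (edgeR adjusted p = 0.011) and -0.44 from Myc (0.065). Its call from WT held in all 9 leave-one-out fits. Vegfc, the ligand of VEGFR3, had -0.32 (0.043) and was called in 2 of the 9 fits. Vegfa, the ligand of Kdr and Flt1, was at 192 ± 15.6 CPM in WT and 176 ± 15.6 CPM in Grhl2KO_Myc (-0.13, 0.36).

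Of 41 further endothelial genes 5 fell and 1 rose, against 2.61% and 4.06% of all genes. Podxl, a sialomucin of endothelium and podocytes, fell from 420 to 315 CPM (log2 fold change -0.41, adjusted p = 0.0037) and was called in all 9 leave-one-out fits. Podocyte markers moved with it: all 12 fold changes were below 0 with a median of -0.27, Nphs1 (-0.64, 0.022) and Ptpro (-0.40, 0.011) were called, and their summed level was 1130 to 1350 CPM in WT, 1040 to 1220 CPM in Myc and 969 to 1030 CPM in Grhl2KO_Myc. Whether podocytes account for the Podxl change was not tested.

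The endothelin receptor gene Ednrb fell from 97.0 to 74.2 CPM (-0.39, adjusted p = 0.018); this call was lost without Grhl2KO_Myc replicate 3 (0.062) or 4 (0.058). The adaptor gene She had -0.26 (0.018) and was lost without Grhl2KO_Myc replicate 2 (0.052). Tal1, a factor of blood and endothelial progenitors that works with GATA factors, rose from 6.60 to 8.65 CPM (0.39, 0.018) and was lost without WT replicate 2 (0.054) or 3 (0.054) or Grhl2KO_Myc replicate 3 (0.061). Calcrl, which encodes the receptor that RAMP2 and RAMP3 modify, and Ets1 were the remaining called genes, named after their values were seen, with -0.26 (0.025) and -0.20 (0.031). They were called in 5 and 3 of the 9 leave-one-out fits. Of the 13 vascular genes that fell, Hey1 and Podxl were still called under scaling by the 5 broad endothelial genes. The other 11 were not, Sema3a (edgeR adjusted p = 0.055) among them, and the share of all genes called on that scale is not given. Without the 3 libraries low in proximal tubule markers Ednrb (0.084), Vegfc (0.068) and the venous gene Npr3 (0.18) were also lost.

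**Figure D5:**
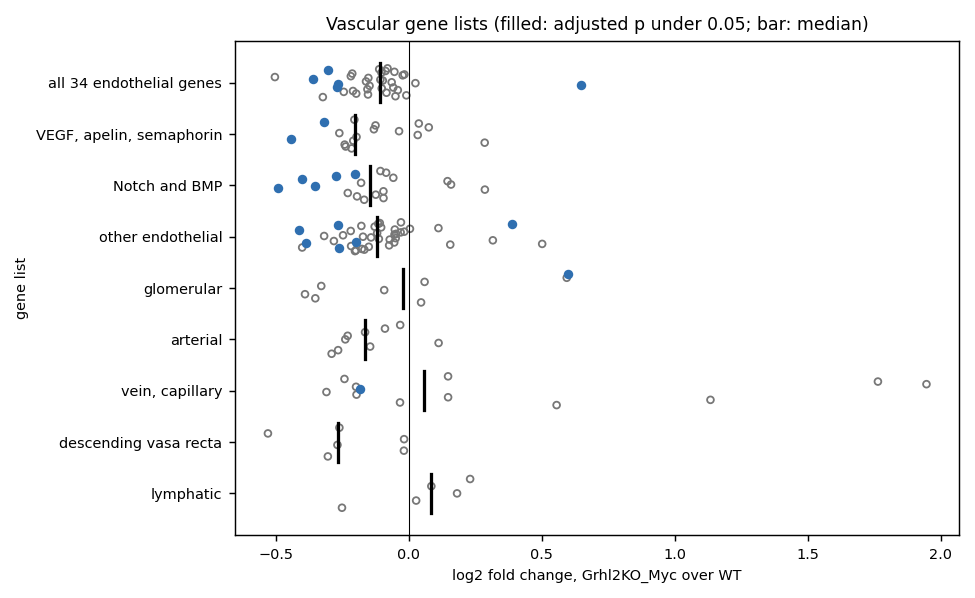
Log2 fold change from WT to Grhl2KO_Myc of each gene (points) of the 34 and of the other vascular lists, with the median of each list (bar) and filled points for an adjusted p under 0.05. The medians lie between -0.26 for the descending vasa recta and 0.08 for the lymphatic list, and the points past 1 are Sele, Selp and Icam1, which were not called.

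By vessel zone, the glomerular list gave 1 rise of 8, where 4.06% of all genes were called higher and 2.61% lower. Lists of 5 to 12 genes are too short for 0 or 1 call to set a zone apart from these shares. Tbx3, a T-box factor reported in the glomerular endothelium, was at 73.2, 66.9, 67.2, 61.3 and 68.8 CPM in WT, 74.2, 84.1 and 81.1 CPM in Myc and 84.8, 85.6, 122 and 115 CPM in Grhl2KO_Myc. The 3 groups did not overlap (log2 fold change from WT 0.60, edgeR adjusted p = 0.0067, called in all 9 fits). Grhl2KO_Myc lay wholly above WT for 5.67% of all genes and wholly above Myc for 8.95%. Myc lay wholly above WT for 2.22%. Sost, another gene of that list, was at 2.55 ± 0.804 CPM in WT and 3.85 ± 0.363 CPM in Grhl2KO_Myc (0.59, 0.097). The arterial list gave 0 calls of 9, with Gja5, an arterial gap junction gene, at -0.16 (0.38). The capillary and vein list gave 1 of 12, Npr3, the natriuretic peptide clearance receptor (-0.18, 0.043), called in 2 of 9 fits, and Igfbp3 was at 0.15 (0.67). Neither the descending vasa recta list, with the urea transporter gene Slc14a1 at -0.53 (0.25), nor the lymphatic list had a call among 6 and 5 genes. From Myc to Grhl2KO_Myc none of the 115 genes was called by edgeR, where 0.842% of all genes were. DESeq2 called 6 of the 115, a count given here without its share over all genes.

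Neighbouring cell types were checked by their markers. Of 14 mural, 8 fibroblast, 10 macrophage, 6 platelet and 6 erythroid markers tested, none was called from WT to Grhl2KO_Myc. Over all genes 6.67% were called in that comparison. At an unadjusted edgeR p under 0.05, 5 mural, 2 fibroblast and 1 erythroid markers were lower, against 9.91% of all genes. On the same measure 1 mural and 1 macrophage marker were higher, against 12%. Lists this short cannot show that a cell type was unchanged. In the order above, the list medians were -0.07, -0.07, 0.09, -0.16 and -0.41. All 6 erythroid fold changes were below 0, from WT to Myc as well (median -0.26). The erythroid score stood highest in WT replicate 4, at 0.771 on the log2 scale. Without that library WT scores, -0.0835 to 0.297, overlapped those of Myc, -0.202 to 0.0872, and of Grhl2KO_Myc, -0.606 to 0.240. Erythroid markers summed to 904 to 1790 CPM in WT, 893 to 1130 CPM in Myc and 637 to 1120 CPM in Grhl2KO_Myc. The part of blood left in the kidney in the endothelial values was not tested. Mural summed levels were 1340 to 1830 CPM in WT, 1570 to 1680 CPM in Myc and 1370 to 1700 CPM in Grhl2KO_Myc, and fibroblast levels 3860 to 4920, 3980 to 4590 and 3780 to 4750 CPM. Macrophage markers summed to 120 to 144, 111 to 142 and 124 to 164 CPM. Platelets also carry RNA of Vwf and Pecam1, and platelet markers summed to 17 to 22.4, 17.1 to 17.7 and 17.6 to 20.8 CPM, with Treml1 at 0 in WT replicate 5. Their part in the levels of those genes was not tested.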

How the data were processed

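Polyadenylated RNA of whole right kidneys was measured in 12 libraries. Reads were aligned with HISAT2 to mm10, per the submitters' processing notes; no source used here names the counting program. The TruSeq kit, version 2 per the labels' protocols, marks no strand. The authors deposited raw counts per gene with exon widths and no normalization. Replicates of a group differed by more than sampling noise (chi-square over degrees of freedom of 12.7 or more), so each library counts as 1.

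Counts were tested with edgeR 4.0.16 in R 4.3.3: TMM scaling, the default filter, 1 quasi-likelihood fit of all libraries with a coefficient per group, and Benjamini-Hochberg adjustment over 23742 genes at 0.05. Each SE is the size of the log2 fold change over the square root of F. The script was tested on simulated counts. Positions and exon overlaps are from GENCODE M21.

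The 34 genes, the other lists and the tests were chosen with earlier results of these data known. All 34 genes were accounted for. Library values are given for called members and for those that define a group. Of other vascular lists, the called genes of smallest adjusted p, at most 4 a list, were named, with Vegfa, Slc14a1, Gja5, Igfbp3 and Sost whatever their p. Of 116 symbols in those lists 115 were matched. Scores are mean log2 CPM (prior count 2) relative to the mean over libraries.

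Alternatives were other scalings and filters, DESeq2 1.42.0, limma-voom (limma 3.58.1), scaling by 5 broad endothelial genes, terms for proximal tubule score or Y-linked expression, fits without the 3 libraries of low proximal tubule score (below -0.5), fits of the compared groups alone, a replicate block, and each library left out.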

Additional observations from a re-analysis of the deposited data

Results flagged for a closer look

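Of 72 sets of libraries checked (the 34 genes, the sum of 5 broad endothelial genes and the mean score, each in WT and in Grhl2KO_Myc), 10 held a highest library set apart from the rest by more than the gap expected within a group of that size. Chance alone sets apart about 1 in 20 groups. In WT replicate 4, Lyve1 was at 16.3 CPM with the next WT library at 4.67, and Ramp3 was at 24.6 CPM with the next at 12.9. In the same library Ramp2 was at 152 CPM (next 111), Tie1 at 141 (112), Esam at 58 (46.3), Nos3 at 40.5 (32.8) and Sox7 at 15.3 (13). This library also had the lowest proximal tubule score of all 12, at -1.28. In Grhl2KO_Myc replicate 2, Pecam1 was at 127 CPM (next 101) and Nrp1 at 185 (167). In Grhl2KO_Myc replicate 4, Nos3 was at 31.4 CPM with the next library at 28.9.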

How the results depend on the processing

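The 5 calls among the 34 genes from WT to Grhl2KO_Myc became 1 when libraries were scaled by 5 broad endothelial genes, 8 with DESeq2, 11 with the proximal tubule score as a term, 3 with a Y-linked expression term and 3 in a fit of these groups alone, and ranged from 2 to 9 over the leave-one-out fits. The 15 calls among other vascular genes became 6, 26 and 9 under the endothelial scaling, the proximal tubule term and the Y-linked term, 29 without the 3 libraries low in proximal tubule markers, and 7 to 31 over the leave-one-out fits. The lowest came without Grhl2KO_Myc replicate 3 or 4 and the highest without WT replicate 4. The 1 call under the endothelial scaling ranged from 1 to 4. From Myc to Grhl2KO_Myc the 0 calls among the 34 became 1 without the 3 libraries. Among the other vascular genes 0 became 1 with a filter of 1 CPM in 3 libraries, 6 with DESeq2, 1 with limma-voom, 1 with the proximal tubule term, 1 without the 3 libraries and 2 in a fit of these groups alone. The cause was not tested. Except for the replicate block below, these counts stand without the share of all genes called in the same fits. They do not tell a change in endothelial genes from a longer or shorter list of calls over all genes. The log2 fold change of Ramp3, -0.02, ranged from -0.10 (without WT replicate 2) to 0.25 over the leave-one-out fits and reversed without WT replicate 4 (adjusted p = 0.035).

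Replicate numbers are shared only as numbers: deviations of libraries with the same number correlated between -0.11 and 0.23. With a replicate block, 0 of the 34 and 0 of the other vascular genes were called from WT to Grhl2KO_Myc, where 184 of all genes were.

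Of 439 values of called genes under alternatives, 303 were still called in the same direction, 136 were not called and 0 reversed. The group sizes of 3 to 5 libraries, and 162 counts for Lyve1 in its poorest library, limit the precision.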

Other observations

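Leukocyte adhesion genes, which endothelium raises on activation by cytokines, were high in 1 library, Grhl2KO_Myc replicate 2. This was noticed after the values were seen. Sele (E-selectin) was at 4.30 CPM there and at 0.097 to 0.762 CPM in the other 11 libraries. Selp (P-selectin) was at 6.503 CPM against 0.236 to 0.791 CPM. Icam1 was at 93.04 CPM against 11.2 to 20.1 CPM, and Vcam1 at 35.3 CPM against 16.7 to 28.4 CPM. Ackr1, a chemokine-binding protein of venules, was at 1.27 CPM against 0.192 to 0.597 CPM. The macrophage marker score of this library was the highest of the 12, at 0.411 on the log2 scale. Pecam1 and Nrp1 were also highest among Grhl2KO_Myc libraries there, while Kdr, at 77.6 CPM, lay within the range of the other 3.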
